A study of Mus musculus with 4 samples.

Results

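The genes described here are the nuclear-encoded subunits of the mitochondrial respiratory chain and ATP synthase, 84 of the 31053 genes in the count tables. They were chosen by symbol, as the Nduf genes of the a, b, c, s and v series, Sdha to Sdhd, all Uqcr genes, Cox4 to Cox8 and all Atp5 genes. This rule holds no measured value, though the choice was made with earlier results of these data known. The 84 gene identifiers carry 83 symbols, because Atp5o is listed under a pair of identifiers, and 83 of the identifiers had at least 1 count. A set of 76 identifiers are subunits and closely related genes used in most tissues, called ubiquitous members here. The other 8 are tissue isoforms, kept apart: Ndufa4l2, Cox4i2, Cox6a2, Cox6b2, Cox7a1, Cox7b2, Cox8b and Cox8c.

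Respiratory complexes I to IV pass electrons from NADH and succinate to oxygen and pump protons across the inner mitochondrial membrane, and complex V, the ATP synthase, uses that gradient to make ATP. Complex I (Nduf genes) oxidizes NADH, complex II (Sdh genes) oxidizes succinate, complex III (Uqcr genes) passes electrons to cytochrome c, and complex IV (Cox genes and Ndufa4) reduces oxygen. Complex II is made wholly from nuclear genes, whereas the others also hold subunits from the 13 protein genes of mitochondrial DNA, whose symbols start with mt-. Heart and skeletal muscle use their own isoforms of some complex IV subunits, and Ndufa4l2 and Cox4i2 are known as isoforms that low oxygen induces.

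Aortic arches with their main branches and surrounding tissue were taken from male mice, dissociated, sorted for live cells and sequenced as 4 single-cell libraries, 1 per condition. Nrf2 flox/flox mice carry a floxed Nfe2l2 gene, and Nrf2Cdh5tKO mice carry it with a constitutive Cdh5-cre transgene that removes exon 5, so that Nrf2 cannot act as a transcription factor in cells with a history of Cdh5 expression. Cdh5-cre is used for endothelial cells and is also active in a share of blood-forming cells. Atherosclerotic mice received an AAV8 vector at 3 months of age and a high-fat diet for 21 weeks, and normocholesterolemic mice received saline and a standard diet. The tissue of 4 mice per normocholesterolemic library and of 3 mice per atherosclerotic library was pooled, so no comparison between conditions has a replicate. Values per library are given in the order normocholesterolemic Nrf2 flox/flox, normocholesterolemic Nrf2Cdh5tKO, atherosclerotic Nrf2 flox/flox and atherosclerotic Nrf2Cdh5tKO.

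Of 15599 cell barcodes, 14148 had 200 to 6000 genes and at most 15% mitochondrial counts and were kept (7890, 2972, 1020 and 2266), with median depths of 9200.5 to 14152.5 unique molecular identifiers (UMIs, counts of captured transcripts). A cell type was given to 11517 of them (81.4%), those with at least 3 of 6 marker genes of 1 type and of no other. Fibroblast markers such as Dcn were also counted in other types, at 717 to 1591 CPM (UMIs per 1000000 UMIs of a sum) in the macrophage sums of the 4 libraries and 1351 to 4871 in the endothelial cell sums, against 24824 to 26918 in the fibroblast sums. In the endothelial cells of the library labelled atherosclerotic Nrf2Cdh5tKO they summed to more than the endothelial markers, and thymocytes held more of the T cell list than of their own. Across libraries 31 barcodes were repeated. In endothelial cells Nfe2l2 itself stood at 177, 381, 170 and 353 CPM (74, 102, 29 and 74 UMIs), and in macrophages at 438, 473, 434 and 420. Exon 5 is the last exon of the gene in GENCODE M21 (chr2:75675513-75677184, minus strand), where 3′ tags fall, and how much of it is removed is not given in the sources used here. The counts were thus higher under the Nrf2Cdh5tKO label in endothelial cells and differed little in macrophages. In atherosclerosis they were also higher under it in fibroblasts (225 against 177 CPM) and smooth muscle cells (162 against 107). On the standard diet these stood at 193 against 178 and at 100 against 98.7. Summed counts of the gene cannot test the loss of this exon, since how much of it is removed is not given. The study reports less of the exon and lower levels of selected target genes in bone marrow-derived macrophages and Kupffer cells from such mice. Genotype is given below as labelled only. Endothelial cells numbered only 75, 39, 28 and 24.

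The ubiquitous members together stood at 18396 CPM over all kept cells, against 24073 for the 13 mt- genes. Complex I gave 5909 CPM, complex V 5177, complex IV 5115, complex III 1904 and complex II 291. UMI counts come from the 3′ end of each transcript and do not grow with its length, so they were not divided by length. The 2 most abundant members of each complex were Cox4i1 (739 CPM) and Cox8a (669) of complex IV, Atp5e (687) and Atp5h (500) of complex V, Uqcrh (534) and Uqcrb (348) of complex III, Ndufa13 (409) and Ndufa2 (333) of complex I, and Sdhb (107) and Sdha (72.8) of complex II. The enzyme that is nuclear-encoded throughout was thus also the one with the fewest transcripts. Counts of Atp5o, Ndufb2, Ndufb8 and Ndufb9 are uncertain, since exons of these genes overlap those of another listed gene on the same strand and the counting drops reads that fit both.

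The summed level of the ubiquitous members was highest in thymocytes and lowest in macrophages among the 7 cell types with at least 20 cells in every library. Thymocytes, immature T cells that express Rag1 and Dntt, had 27882, 26097, 25364 and 28203 CPM (26886 ± 1374, mean ± SD over 4 libraries). T cells had 22993, 20306, 22266 and 21485 (21763 ± 1150) and smooth muscle cells 24926, 20609, 19781 and 21517 (21708 ± 2259). All 4 thymocyte values lay above all T cell and smooth muscle values, whereas T cells and smooth muscle cells overlapped. Thymocytes also held more cells with markers of cell division (194 of 492, against 58 of 459 T cells). The thymocytes without these markers had 22263, 19598, 17848 and 17565 CPM, and those with them 28256 to 31533. The former stood below the T cells and below the smooth muscle cells in each library, though the ranges overlapped across libraries. They stood above the T cells without these markers in each library (19315, 14804, 16542 and 17482).

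Endothelial cells had 18806, 16327, 14237 and 17081 CPM for the same sum (16613 ± 1894). Fibroblasts had 17546, 14881, 15181 and 16711 (16080 ± 1264), and B cells 15611, 14195, 14725 and 14805 (14834 ± 584). These 3 types overlapped, so their order is not set by these libraries. Macrophages stood lowest on average with 15163, 10494, 12166 and 14241 (13016 ± 2097), and their highest library overlapped the B cells, fibroblasts and endothelial cells. Among cells of 12000 UMIs or more, macrophages had 16752, 12668.5, 16309 and 17526 CPM, and fibroblasts 16830, 14637, 14940 and 15980. Macrophages were then the lower in both normocholesterolemic libraries and the higher in both atherosclerotic ones. The part of depth in the order of types was not tested.

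The mt- genes followed another order. Smooth muscle cells were highest with 39221 ± 3697 mt- CPM, followed by B cells (29497 ± 1715), endothelial cells (28211 ± 4564), macrophages (27744 ± 5792), T cells (23463 ± 2236), thymocytes (22019 ± 3025) and fibroblasts (19284 ± 822), each as mean ± SD over 4 libraries. Per nuclear UMI, the mt- genes gave 2.23 ± 0.846 UMIs in macrophages, 1.99 ± 0.10 in B cells, 1.82 ± 0.279 in smooth muscle cells, 1.73 ± 0.432 in endothelial cells, 1.21 ± 0.132 in fibroblasts, 1.08 ± 0.130 in T cells and 0.820 ± 0.110 in thymocytes. On average macrophages thus had the fewest nuclear transcripts and the most mt- transcripts per nuclear one, and thymocytes, dividing cells included, the reverse. Thymocytes with markers of cell division gave 0.675 ± 0.114, and those without them (298 of 492) 1.41 ± 0.0457. The latter stood above the means of T cells and fibroblasts given here, though T cells without these markers gave 1.51 ± 0.240. By library the macrophage ratio was 1.46, 3.34, 2.43 and 1.70, and that of B cells 2.01, 2.09, 1.85 and 2.00. B cells were thus above macrophages in the first and last library, and in the first smooth muscle cells (1.59) were too. The limit of 15% mitochondrial counts caps the mt- level of every kept cell.

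**Figure D1:**
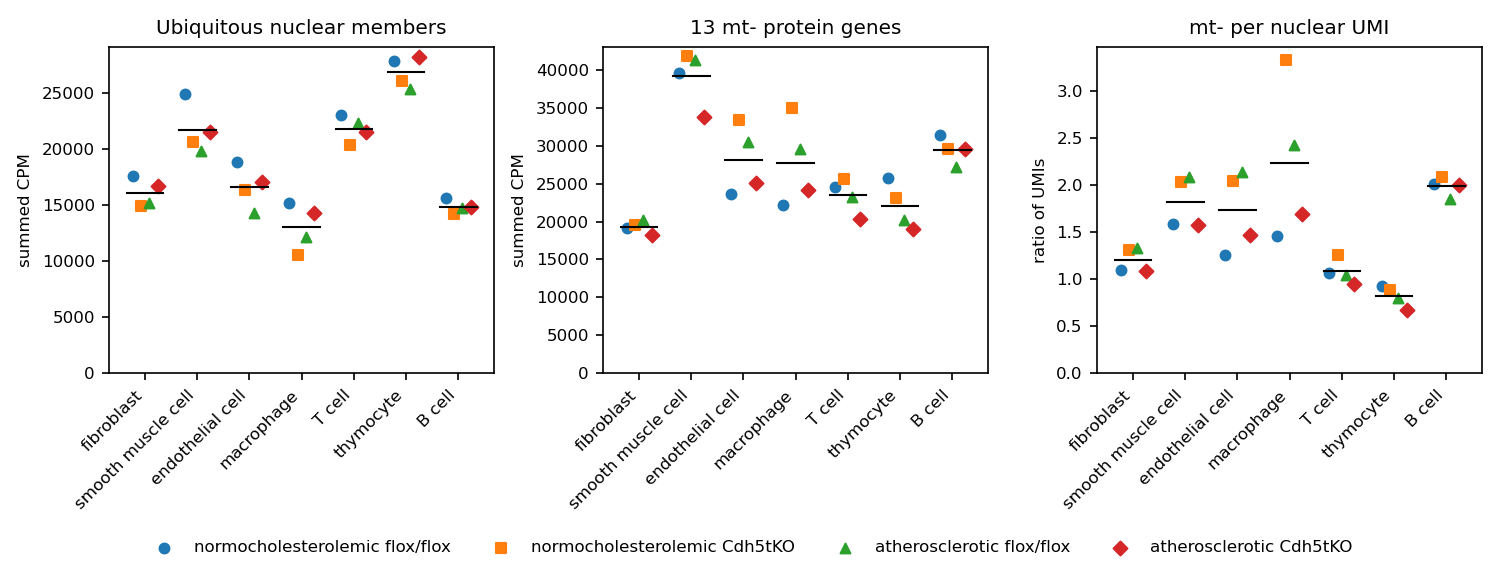
Summed CPM of the ubiquitous nuclear members (left), of the 13 mt- protein genes (middle) and the ratio of their UMIs (right) in 7 gated cell types, with 1 point per library and a line at the mean of the 4 libraries. Thymocytes, dividing cells included, are highest on the left (26886 on average) and lowest on the right (0.820), and the macrophage ratio spreads from 1.46 to 3.34.

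The makeup of the chain differed between tissue and blood cells. Complex I gave 33.7% ± 0.586 of the nuclear UMIs in fibroblasts, 33.8% ± 0.693 in smooth muscle cells and 31.1% ± 1.55 in endothelial cells. In leukocytes it gave 28.5% ± 0.661 in macrophages, 27.8% ± 0.574 in thymocytes, 27.1% ± 0.595 in B cells and 26.6% ± 0.597 in T cells. The share of complex V ran the other way in lymphocytes, at 32.2% ± 0.716 in T cells, 31.4% ± 0.499 in thymocytes and 31.4% ± 1.09 in B cells against 26.2% ± 0.309 in smooth muscle cells and 28.1% ± 0.471 in fibroblasts (all mean ± SD, n = 4 libraries).

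Among the 75 ubiquitous members with counts, 50 had their highest mean level in thymocytes and 20 in smooth muscle cells, and 41 had their lowest in macrophages and 22 in B cells. Dividing cells are included in these means. The ratio of the highest to the lowest type mean was 2.36 in the median and above 2 for 55 members. It was largest for Cox5a, a core nuclear subunit of complex IV, with 472 CPM in thymocytes and 133 in fibroblasts (3.55 times). It was smallest for Sdha, the flavoprotein of complex II, with 90.8 in endothelial cells and 64.7 in B cells (1.40 times). Among the abundant members, Ndufa13 ran from 251 in B cells to 505 in smooth muscle cells and Cox4i1 from 579 in macrophages to 1002 in smooth muscle cells.

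Transcription of these genes is known to involve nuclear respiratory factor 1 (gene Nrf1), ETS factors such as GABP, and YY1. GABP is also called nuclear respiratory factor 2 and is not Nrf2, the product of Nfe2l2 that these mice lack in part. RefSeq promoter windows (build GRCm38.p6, 250 bases before to 50 after a start of transcription) were at hand for 66 of the 83 symbols, 62 of them ubiquitous members with 67 windows. The NRF1 motif, the 10 letters in capitals in the first 4 stretches printed after this paragraph, read on both strands like the rest, was in 26.9% of these 67 windows and in 4.60% of all 32851 windows. The ETS motif CCGGAAG was in 23.9% against 8.86%, and the YY1 motif AAGATGGC in 13.4% against 2.75%. The core of the hypoxia response element, ACGTG, was in 22.4% against 19.6%, and the antioxidant response element TGACNNNGC, the motif that Nrf2 is known to bind, in 14.9% against 12.4%. None of the 4 isoform windows (Cox6b2, Cox7a1, Cox7b2, Cox8b) held the NRF1, ETS or YY1 letters, and ACGTG stood in those of Cox7a1 and Cox8b.

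The following stretches of 30 bases upstream of the start show the motif in members that the text names, read 5′ to 3′ along the gene, with the motif in capitals. The first 4 hold the NRF1 motif, in Cox6a1 (chr5:115349056-115349085, minus strand), Atp5g2 (chr15:102671070-102671099, minus strand), Ndufa11 (chr17:56717692-56717721, plus strand) and Ndufs5 (chr4:123718265-123718294, minus strand). The last 4 hold the ETS motif, in Atp5e (chr2:174464185-174464214, minus strand), Atp5h (chr11:115419939-115419968, minus strand), Cox6b1 (chr7:30626124-30626153, minus strand) and Ndufb7 (chr8:83566727-83566756, plus strand).
Cox6a1: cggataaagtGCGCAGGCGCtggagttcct
Atp5g2: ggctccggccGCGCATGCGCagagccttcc
Ndufa11: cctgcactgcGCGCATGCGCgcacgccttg
Ndufs5: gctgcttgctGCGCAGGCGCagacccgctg
Atp5e: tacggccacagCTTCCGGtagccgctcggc
Atp5h: caaggagagaaCTTCCGGcaactctcttcc
Cox6b1: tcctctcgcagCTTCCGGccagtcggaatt
Ndufb7: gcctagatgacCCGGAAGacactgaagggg
The NRF1 motif reads almost the same on both strands, and CTTCCGG is the ETS motif on the opposite strand.

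Differences between cell types were tested with edgeR's quasi-likelihood test on UMIs summed per library and type (28 sums of 7 types). The library was a term, so that the 4 libraries, which differ in genotype, diet and vector, act as replicates of a type. Of the 76 ubiquitous identifiers, 74 passed the filter on low counts. In smooth muscle cells against fibroblasts, 53 of these 74 rose and 1 fell at an adjusted p below 0.05, while 23.1% of all 10981 genes tested rose and 25.2% fell. The median log2 fold change was 0.45 for the members and -0.01 for all genes. All 13 mt- genes rose (median 1.05). By complex, 27 of 35 members of complex I, 7 of 8 of complex III, 8 of 12 of complex IV, 10 of 15 of complex V and 1 of 4 of complex II rose.

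Ndufb3, an accessory subunit of complex I, had 139, 115, 107 and 108 CPM in fibroblasts and 288, 259, 246 and 225 in smooth muscle cells. The groups did not overlap, and the log2 fold change was 1.14 ± 0.12 (SE; adjusted p 4.24e-09, edgeR, n = 4 libraries). Cox6c, a small subunit of complex IV, had 573, 432, 467 and 526 in fibroblasts and 1157, 863, 895 and 898 in smooth muscle cells, again without overlap (0.95 ± 0.13, adjusted p 5.46e-07). The member that fell was Atp5o, of the stalk of the ATP synthase (-0.41 ± 0.15, adjusted p 0.0283), whose count is uncertain for the overlap named above.

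Genes outside the chain moved too. Of the genes of carriers and the tricarboxylic acid cycle, 12 of 17 rose and 1 fell in smooth muscle cells, and of the assembly factors that build the complexes 12 of 36 rose and 1 fell. Of 14 glycolytic genes 9 rose, among them Pfkl (2.42 ± 0.16, adjusted p 1.31e-13) and Pkm (1.25 ± 0.15, adjusted p 3.66e-08). Of the genes known to answer to low oxygen, 6 of 8 rose, among them Egln3 (2.64 ± 0.34, adjusted p 1.46e-07), and 2 fell, Vegfa (-2.00 ± 0.26, adjusted p 1.59e-07) and Adm (-1.60 ± 0.26, adjusted p 6.02e-06). Of the regulators, Esrra (0.87 ± 0.23, adjusted p 0.00211) and Tfb2m (0.47 ± 0.14, adjusted p 0.00703) rose and Gabpa fell (-0.35 ± 0.14, adjusted p 0.0369). Of 91 cytosolic ribosomal genes 5 rose and 39 fell, and of 77 mitochondrial ribosomal genes 31 rose and 2 fell.

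In macrophages against fibroblasts, 4 of the 74 ubiquitous members rose and 33 fell, beside 32.4% of all genes that rose and 34.1% that fell. The share of members that rose was thus far below that of all genes and the share that fell above it, with a median of -0.25 against -0.04. Most of the falls were in complex I, where 24 of 35 members fell and 1 rose, and 7 of 15 members of complex V, 1 of 12 of complex IV and 1 of 8 of complex III fell. Of the mt- genes, 10 of 13 rose and none fell, also at an unadjusted p under 0.05. Without the library labelled normocholesterolemic Nrf2Cdh5tKO 20 nuclear members fell, beside 3229 of 10400 genes, a share under that of all genes. Without the library term 19 fell, beside 3403 of 10981, again under it. With any other library left out the share that fell stayed above that of all genes. Leaving out the 1 or the other atherosclerotic library gave 2 members that rose. The order of these cell types in the summed level differed with the depth of the cells, as given above, and the part of depth in this contrast was not tested.

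Ndufa11, an accessory subunit of complex I, had 208, 184, 212 and 240 CPM in fibroblasts and 106, 61.7, 106 and 126 in macrophages, which did not overlap (log2 fold change -1.0 ± 0.15, adjusted p 1.06e-06). Cox5a had 153, 136, 108 and 134 in fibroblasts and 240, 187, 210 and 231 in macrophages, also without overlap (0.80 ± 0.12, adjusted p 7.18e-07). Atp5g2, which encodes the c subunit of the ATP synthase ring, rose by less (0.52 ± 0.10, adjusted p 7.52e-05), as did Uqcrc1, a core protein of complex III (0.38 ± 0.12, adjusted p 0.00807). Among regulators Esrra, Yy1 and Nrf1 rose and Tfb2m and Tfam fell.

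In endothelial cells against fibroblasts, 3 of 74 members rose and 14 fell, beside 14.4% and 17.7% of all genes, and the medians were -0.10 and -0.07. In this main fit the members' shares stood near or under those of all genes. Some other settings, given here and further below, put the share that fell above that of all genes. Without normalization factors, where the median of all genes was 0.12, 11 members rose and 8 fell, and of all genes 2185 rose and 1448 fell in place of 1586 and 1941. Fibroblast markers in these cells summed to the values given above, and their part in the result was not tested. The members that rose were Cox5a (0.56 ± 0.13, adjusted p 0.00140), Ndufb7 of complex I (0.53 ± 0.14, adjusted p 0.00288) and Atp5g2 (0.44 ± 0.11, adjusted p 0.00258). Ndufa11 fell (-0.75 ± 0.18, adjusted p 0.00112), with 174, 135, 135 and 124 CPM, all below the fibroblast values. Of the 13 mt- genes 6 rose and none fell (10 and 0 at an unadjusted p under 0.05). Without the atherosclerotic Nrf2 flox/flox library no member rose and 24 fell, and without the library labelled atherosclerotic Nrf2Cdh5tKO 1 rose, Cox5a, and 22 fell. Of all genes, 1187 rose and 2514 fell of 12535 in the former, and 1209 rose and 2481 fell of 11453 in the latter.

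In T cells against fibroblasts, 38 of 74 members rose and 7 fell, beside 33.9% and 38.1% of all genes, with medians of 0.31 and -0.08. DESeq2 called 34 higher and 15 lower, and of all genes 3434 and 4455. By edgeR without the atherosclerotic Nrf2 flox/flox library 23 were higher and 9 lower, beside 3594 and 4730 of 12535 genes. The share that rose was then near that of all genes. The complexes parted: 13 of 15 members of complex V, 10 of 12 of complex IV and 6 of 8 of complex III rose, but only 7 of 35 of complex I, where 5 fell and the median was -0.03. Of the 13 mt- genes 3 rose and 1 fell. The T cells without markers of cell division (401 of 459) had 19315, 14804, 16542 and 17482 CPM of the members summed. Fibroblasts had 17546, 14881, 15181 and 16711, which overlapped them. T cells with these markers had 28242 to 32162, and their part in the result was not tested.

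Cox5a showed the greatest rise of any member in T cells, with 483, 420, 414 and 418 CPM against 108 to 153 in fibroblasts (log2 fold change 1.59 ± 0.12, adjusted p 1.50e-12). Atp5g2 had 579, 518, 598 and 537 against 230 to 278 (1.04 ± 0.11, adjusted p 7.10e-10). Uqcrfs1, the Rieske iron-sulfur protein of complex III, had 161, 153, 144 and 112 against 61.7 to 71.9 (1.01 ± 0.15, adjusted p 1.27e-06). In none of these 3 genes did the groups overlap. Nrf1, Tfam and Yy1, regulators of the chain and of mitochondrial DNA, rose as well (1.21 ± 0.17, 1.12 ± 0.17 and 0.87 ± 0.12, adjusted p 3.48e-07, 1.06e-06 and 1.39e-07), as did 79 of 91 cytosolic and 33 of 77 mitochondrial ribosomal genes.

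In thymocytes against T cells, 15 of 74 members rose and none fell, beside 12.0% and 14.3% of all genes (medians 0.21 and -0.01). At an unadjusted p under 0.05 the edgeR counts were 30 and 1, a count not made for all genes. By DESeq2 22 rose and none fell, beside 1231 and 1622 of all 10981 genes. Of the 15, 8 belong to complex I. Dividing cells, which stood higher in both types, made up 194 of 492 thymocytes and 58 of 459 T cells, and their part in the result was not tested. Ndufs5, an accessory subunit of complex I, had 209, 181, 142 and 139 CPM in T cells and 315, 286, 269 and 249 in thymocytes, without overlap (0.59 ± 0.13, adjusted p 0.000656). Of 13 mt- genes 4 fell and none rose (6 and 0 at an unadjusted p under 0.05), 7 of 14 glycolytic genes fell, and 69 of 91 cytosolic ribosomal genes fell. The count of members that rose was 39 without normalization factors, where the median of all genes was 0.12 and 2025 genes rose and 1306 fell in place of 1314 and 1568. It was 3, with 3 that fell and a median of -0.03, when cells needed 1 more marker, beside 1043 and 1315 of 10835 genes. Leaving out a library gave 7, 3, 4 and 4. Of all genes, 771 of 10478, 838 of 10400, 962 of 12535 and 1055 of 11453 then rose. The members' share was thus above that of all genes only without the normocholesterolemic flox/flox library, and the excess of the main fit was not stable.

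Macrophages with markers such as Lyve1, Folr2 and Cd163, known from a resident subset around vessels, were compared with other macrophages in a separate fit of 8 sums. None of the 74 members rose and 45 fell, beside 9.15% and 11.1% of all 7987 genes tested (medians -0.55 and 0.00). At an unadjusted p under 0.05 the counts were 0 and 62, a count not made for all genes. DESeq2 called 0 and 35, beside 457 and 679 of all 7987 genes. Without normalization factors 27 fell, and of all genes 1030 rose and 680 fell in place of 731 and 887. Atp5e, a small subunit of the ATP synthase, had 505, 256, 207 and 441 CPM in Lyve1+ macrophages and 711, 459, 714 and 734 in the others (-1.04 ± 0.20, adjusted p 0.00303). Cox7b, a small subunit of complex IV, had 221, 96.4, 91.4 and 146 against 272, 166, 264 and 253 (-0.89 ± 0.18, adjusted p 0.00464). Atp5o followed, with the doubt on its count named above (-0.84 ± 0.23, adjusted p 0.0195). For Atp5e and Cox7b the Lyve1+ cells were the lower in each library, though the ranges overlapped across libraries.

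The fall was not shared by the mt- genes, of which none of 13 passed (2 higher and 0 lower at an unadjusted p under 0.05, median 0.17), but 70 of 88 cytosolic ribosomal genes and 8 of 13 glycolytic genes fell with the chain. Summed, the members stood at 14584, 9856, 8170 and 12422 CPM in Lyve1+ macrophages and at 16280, 12387, 16388 and 17117 in the others. Only 64 and 33 cells stood behind the values of the atherosclerotic Nrf2 flox/flox library. Without the library labelled normocholesterolemic Nrf2Cdh5tKO 11 members fell, beside 585 of 7967 genes. Without the library labelled atherosclerotic Nrf2Cdh5tKO 5 did, beside 428 of 7945 genes, a share near that of all genes. Without the normocholesterolemic and the atherosclerotic flox/flox library 38 and 32 fell, beside 598 of 6915 and 788 of 8762. Without the library term 2 fell, beside 416 of 7987, a share under that of all genes, with a members' median of -0.56. Fibroblast markers summed to 921, 452, 267 and 1111 CPM in the Lyve1+ macrophage sums and to 1294, 1504, 1377 and 2350 in the other macrophage sums, and their part in the result was not tested.

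**Figure D2:**
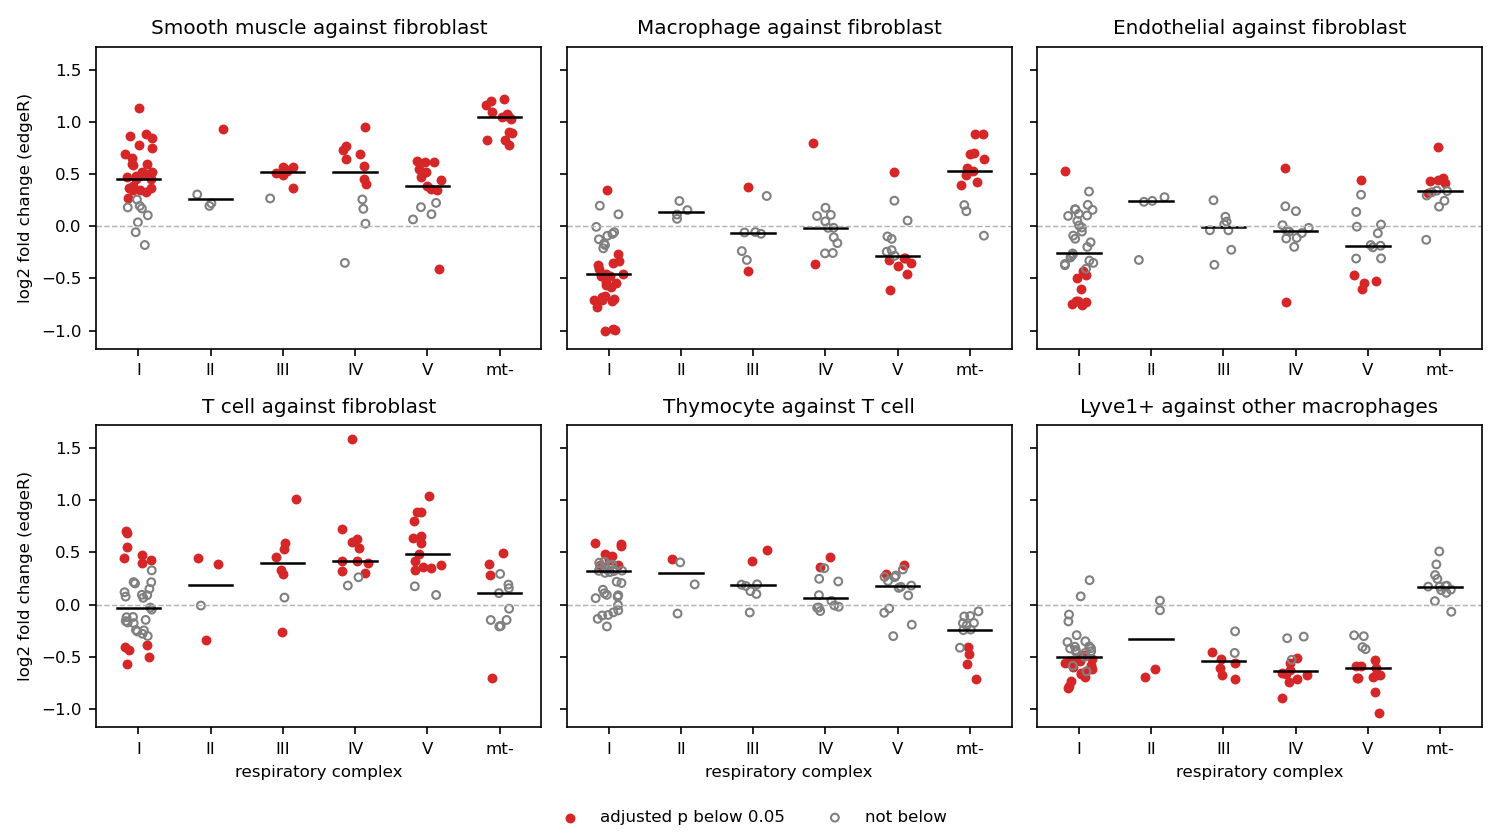
Log2 fold change of each tested ubiquitous member, by complex, and of the 13 mt- genes in the 6 cell type comparisons, with filled points for an adjusted p below 0.05 (edgeR), open points otherwise and a line at the median of each group. In T cells the members of complex I centre on -0.03 while those of complex V rise, and in Lyve1+ macrophages 45 members fall while no mt- gene passes.

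Ndufa4l2, the paralog of the complex IV subunit Ndufa4, was a fibroblast transcript in these libraries. It had 110, 129, 90.8 and 104 CPM in fibroblasts (4663, 2968, 463 and 994 UMIs). It had 5.37, 5.88, 1.30 and 9.41 in smooth muscle cells, 4.28, 4.96, 3.71 and 10.9 in macrophages, and 19.1, 0, 0 and 9.53 in endothelial cells, where the counts were 8, 0, 0 and 2 UMIs. Every fibroblast value lay above every value of the other 6 types, which overlapped each other. The highest of these, 31.8 in the thymocytes of the library labelled atherosclerotic Nrf2Cdh5tKO, came from 6 UMIs in a single cell. The kept cells that were given no type had 36.1, 37.6, 9.31 and 38.6 CPM (611, 207, 25 and 210 UMIs), below the fibroblasts in each library. A list of pericyte markers was not used to gate, so no cell could be called a pericyte. Pericytes may lie among the cells without a type or among the smooth muscle cells, and their level is not known.

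Against fibroblasts, the log2 fold change of Ndufa4l2 was -4.20 ± 0.29 in smooth muscle cells (adjusted p 4.04e-13), -4.19 ± 0.32 in macrophages (adjusted p 1.52e-12) and -5.26 ± 0.43 in T cells (adjusted p 9.54e-12). In endothelial cells it was -3.78 ± 0.52 (adjusted p 9.08e-07). Ndufa4l2 gave 22.3%, 31.1%, 25.3% and 25.4% of the UMIs of the pair with Ndufa4 in fibroblasts (95% exact Clopper-Pearson intervals 21.7 to 22.9, 30.2 to 32.0, 23.3 to 27.3 and 24.1 to 26.8, which cover counting error only). In smooth muscle cells the share was 0.896%, 1.25%, 0.291% and 1.97%.

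A Ndufa4l2 UMI was found in 46.8% of fibroblasts (median depth 12818 UMIs), in 4.65% of smooth muscle cells (15342) and in 0.813% of thymocytes (5470), which serve as the level of free RNA. Cells of at least 5000 UMIs, thinned to that depth, gave 33.3%, 1.59% and 0.377% in the same order, which leaves out 990 of 6297 fibroblasts, 227 of 2173 smooth muscle cells and 227 of 492 thymocytes. The 5 genes whose level over 34 sums of type and library was most like that of Ndufa4l2 were Serpinf1 (Pearson's r 0.92), Pcolce (0.88), Cpxm2 (0.87), Sult5a1 (0.87) and Entpd2 (0.86), out of 11632 genes ranked. The sums of 1 library share its depth and free RNA.

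Cox4i2, the isoform of Cox4i1, was highest in smooth muscle cells among the 7 types, with 30.8, 35.5, 22.1 and 15.5 CPM (683, 193, 17 and 56 UMIs). Fibroblasts had 16.5, 6.89, 3.33 and 3.34 (698, 159, 17 and 32 UMIs). In each library smooth muscle cells stood above fibroblasts, while the ranges met, since the highest fibroblast value exceeded the lowest smooth muscle value. Macrophages had 6.78, 1.80, 0 and 0.436. The kept cells that were given no type, among which pericytes may lie, had 32.0, 9.81, 4.84 and 2.75, above the smooth muscle cells in the first of the 4 libraries.

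The log2 fold change of Cox4i2 against fibroblasts was 1.88 ± 0.25 in smooth muscle cells (adjusted p 2.17e-07), -1.19 ± 0.35 in macrophages (adjusted p 0.00381) and -2.42 ± 0.56 in T cells (adjusted p 0.000356), and -2.36 ± 0.99 in endothelial cells, which missed the threshold (adjusted p 0.0695). In smooth muscle cells Cox4i2 gave 2.68%, 3.40%, 2.37% and 1.58% of the UMIs of the pair with Cox4i1. A Cox4i2 UMI was found in 24.7% of smooth muscle cells and 1.63% of thymocytes, and in 13.4% and 1.13% of the cells of at least 5000 UMIs after thinning to that depth. Its pattern was most like those of Usp13 (r 0.84), Pdzrn3 (0.83), P2rx5 (0.83), Triqk (0.82) and Ctf1 (0.82).

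Cox6b2, a paralog of Cox6b1 best known from testis, was at 17.2, 17.0, 16.7 and 23.3 CPM in fibroblasts and fell in smooth muscle cells (-1.01 ± 0.22, adjusted p 0.000275), macrophages (-0.58 ± 0.23, adjusted p 0.0265), T cells (-1.40 ± 0.31, adjusted p 0.000252) and endothelial cells (-1.92 ± 0.56, adjusted p 0.00856). It rose in thymocytes against T cells (1.14 ± 0.37, adjusted p 0.0230), with 18.3, 18.6, 17.5 and 15.9 against 10.2, 5.27, 7.58 and 2.29, without overlap. These lymphocyte values rest on 3 to 37 and on 1 to 21 UMIs. Its highest levels were in the few mesothelial cells, 204, 98.2 and 341 CPM in 9, 14 and 2 cells of the libraries other than atherosclerotic Nrf2 flox/flox.

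The striated muscle isoforms Cox6a2, Cox7a1 and Cox8b were low in the vessel wall and high in 9 cells with atrial cardiomyocyte markers, all from the library labelled normocholesterolemic Nrf2Cdh5tKO. In these 9 cells the ubiquitous members reached 73310 CPM (95% counting interval 71613 to 75038). Cox6a2 stood at 2940 CPM, Cox7a1 at 1698 and Cox8b at 1470, and they gave 96.3%, 60.3% and 69.3% of the UMIs of the pairs with Cox6a1, Cox7a2 and Cox8a. Of the 284 Cox6a2 UMIs, 172 came from a single cell. In fibroblasts the highest library value of Cox6a2 was 0.736 and that of Cox8b 0.627.

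In the larger gated types the isoforms were sparse. Cox7a1 had 7.08, 7.66, 4.94 and 8.73 CPM in macrophages and 1.75, 2.30, 1.18 and 1.46 in fibroblasts, without overlap. Thymocytes had 5.71, 11.6, 4.36 and 5.29, and endothelial cells 7.16, 7.48, 17.5 and 0, from at most 3 UMIs per library. Cox6a2 had 30 UMIs in 3 of 50 dendritic cells of the flox/flox library on the standard diet and none in the 47 dendritic cells of the other libraries. The kept cells that were given no type held 102, 61, 23 and 1 Cox6a2 UMIs (6.02, 11.1, 8.56 and 0.184 CPM). Cox8b was counted in endothelial cells (16.7, 18.7, 29.2 and 4.77 CPM, from 7, 5, 5 and 1 UMIs), where markers of fat cells summed to 153, 33.6, 87.7 and 14.3, and their part in it was not tested. The 2 cells with fat cell markers in that flox/flox library held 37 Cox8b UMIs (2315 CPM). Cox7b2 had 11 UMIs and Cox8c 1 UMI over all kept cells.

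**Figure D3:**
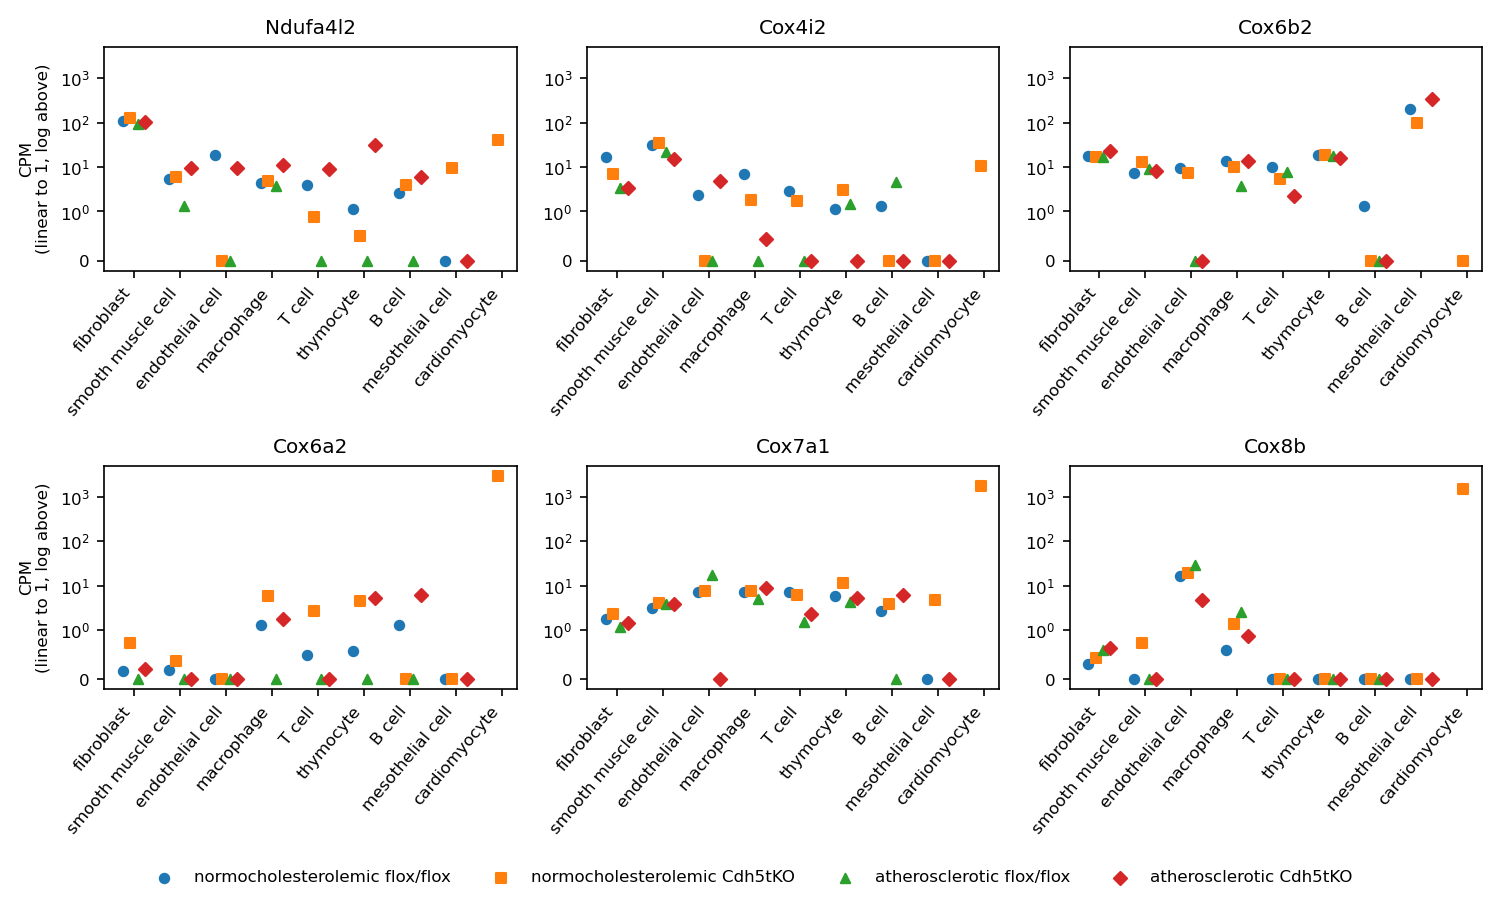
CPM of 6 tissue isoforms (axis linear up to 1 and logarithmic above) by cell type, with 1 point per library. Ndufa4l2 stands at 90.8 to 129 in fibroblasts, Cox4i2 peaks in smooth muscle cells, Cox6b2 in mesothelial cells, and Cox6a2, Cox7a1 and Cox8b stand at 2940, 1698 and 1470 in the 9 cardiomyocyte-gated cells.

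Diet and genotype could be compared only as 1 library against another. The following are thus ratios of summed UMIs with exact binomial 95% intervals that cover counting error alone, with no test. Diet here stands for atherosclerotic against normocholesterolemic libraries. These differ in the vector as well as in the food, and vector and food cannot be told apart. In fibroblasts of flox/flox mice, the members went from 17546 CPM on the standard diet to 15181 in atherosclerosis, a log2 ratio of -0.21 (-0.22 to -0.20). In mice labelled Nrf2Cdh5tKO they went from 14881 to 16711, a log2 ratio of 0.17 (0.16 to 0.18). Smooth muscle cells had -0.33 (-0.36 to -0.31) and 0.06 (0.05 to 0.08), and macrophages -0.32 (-0.35 to -0.29) and 0.44 (0.42 to 0.46). In macrophages the value for flox/flox came to -0.50 with 1 more marker in the gate and to -0.54 as a mean over cells. The Lyve1+ macrophages of flox/flox mice went from 14584 to 8170 CPM (442 and 64 cells), and the other macrophages from 16280 to 16388 (187 and 33 cells). In the sums of each of the 3 cell types the chain stood lower in atherosclerosis with the flox/flox label and higher with the Nrf2Cdh5tKO label.

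Between genotype labels, the library labelled normocholesterolemic Nrf2Cdh5tKO stood below the normocholesterolemic flox/flox library, with log2 ratios of -0.24 (-0.24 to -0.23) in fibroblasts, -0.27 (-0.28 to -0.27) in smooth muscle cells and -0.53 (-0.55 to -0.51) in macrophages. In atherosclerosis the ratios of the Nrf2Cdh5tKO to the flox/flox label were 0.14 (0.13 to 0.15), 0.12 (0.10 to 0.15) and 0.23 (0.19 to 0.26). The comparisons share libraries, so they are not separate observations, and the normocholesterolemic flox/flox library was the highest of the 4 in all 3 types.

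The single members mostly moved with the sum. A member was counted when it passed 1.2-fold in the direction of the sum, among those with at least 50 UMIs in the pair of libraries. For diet in flox/flox mice this was 23 of 75 members in fibroblasts, 47 of 75 in smooth muscle cells and 45 of 74 in macrophages, beside 21.4%, 26.7% and 23.4% of all genes. For diet in mice labelled Nrf2Cdh5tKO it was 15 of 75, 5 of 75 and 54 of 74, beside 14.6%, 17.1% and 20.7%. In mice labelled Nrf2Cdh5tKO the members' share was near that of all genes in fibroblasts and below it in smooth muscle cells.

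For genotype on the standard diet, 26 of 75, 31 of 75 and 58 of 74 members passed downwards in fibroblasts, smooth muscle cells and macrophages, beside 17.4%, 15.8% and 18.7% of all genes. In atherosclerosis 5 of 75, 16 of 74 and 33 of 74 passed upwards, beside 11.3%, 21.3% and 24.1%. Macrophages thus held the largest member counts in 3 of the 4 comparisons. In macrophages the median log2 ratio of the members in the 4 comparisons was -0.32, 0.45, -0.49 and 0.24, and that of all genes 0.14, -0.12, 0.22 and -0.05.

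The mt- genes did not follow the nuclear members. In macrophages their log2 ratios were 0.41 for diet in flox/flox, -0.54 for diet under the Nrf2Cdh5tKO label, 0.66 for genotype on the standard diet and -0.29 for genotype in atherosclerosis, each opposite in sign to the nuclear sum. All 13 mt- genes were above 0 in the third of these comparisons and below 0 in the second. Fibroblasts had 0.07, -0.10, 0.02 and -0.15, and smooth muscle cells 0.06, -0.31, 0.08 and -0.29, also opposite in sign to their nuclear sums. Of the 13 mt- genes, 8, 2, 8 and 1 were above 0 in fibroblasts, and 9, 1, 8 and 1 in smooth muscle cells. With at most 10% mitochondrial UMIs, the mt- sum for diet in flox/flox smooth muscle cells went from 38915 to 37422 CPM, down like the nuclear sum. The other comparisons given here kept their sign under this limit. Cytosolic ribosomal genes in macrophages moved with the nuclear members, at -0.25, 0.46, -0.52 and 0.20, and no cause was tested.

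**Figure D4:**
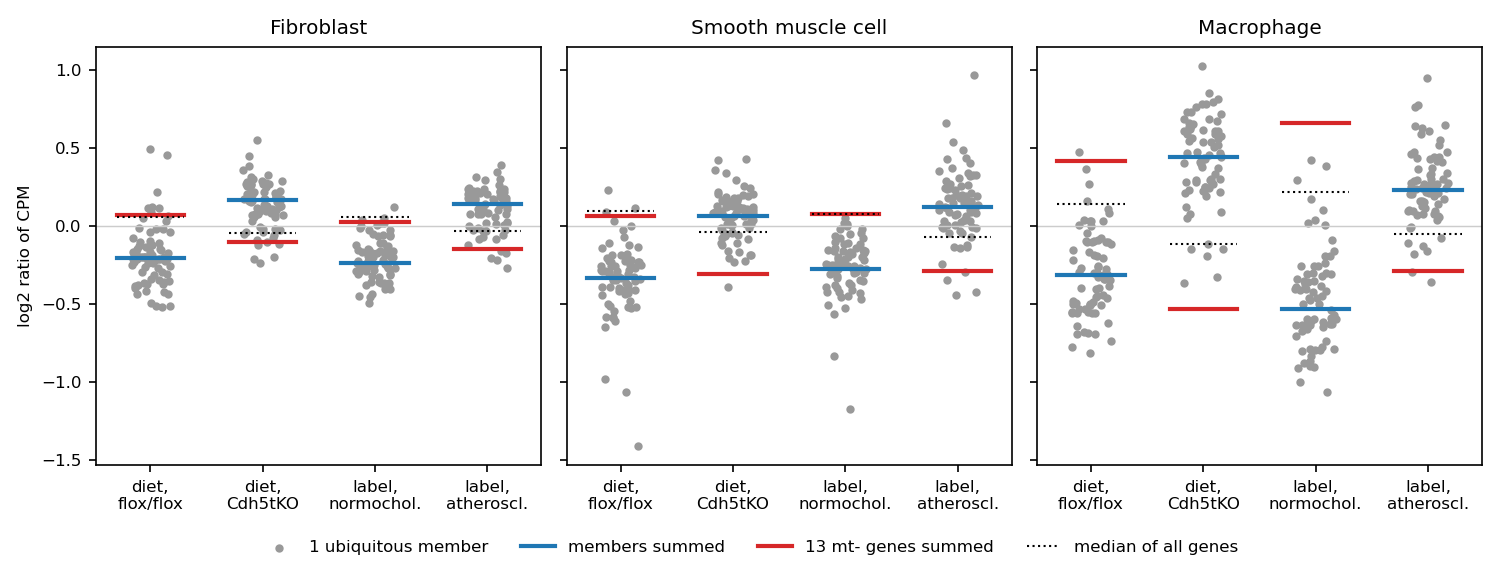
Log2 ratio of CPM between libraries for each ubiquitous member (grey points, at least 50 UMIs), for the members summed (blue), the 13 mt- genes summed (red) and the median of all genes (dotted) in 3 cell types. The 4 columns are diet in flox/flox, diet under the Nrf2Cdh5tKO label, genotype on the standard diet and genotype in atherosclerosis. Diet stands for vector and high-fat diet together. With the limit of 15% mitochondrial counts, blue and red stand on opposite sides of 0 in every column in all 3 cell types.

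Single members departed from the sum, and those with the lowest and highest ratio are given here. Cox4i2 had the lowest ratio of all members in fibroblasts for diet in flox/flox (-2.31, -3.10 to -1.62), diet under the Nrf2Cdh5tKO label (-1.04, -1.64 to -0.49) and genotype on the standard diet (-1.26, -1.52 to -1.01), and in smooth muscle cells for diet under the Nrf2Cdh5tKO label (-1.19, -1.65 to -0.76). Smooth muscle markers summed to 577, 353, 291 and 630 CPM in the fibroblast sums. Both they and Cox4i2 were lowest in the atherosclerotic flox/flox library, while the library labelled atherosclerotic Nrf2Cdh5tKO had the most of these markers and as little Cox4i2, and their part in the result was not tested. Cox4i2 in macrophages was lowest for genotype on the standard diet (-1.91, -3.85 to -0.46), from 4 UMIs against 46. For diet in flox/flox the lowest there was Cox6b2 (-1.87, -4.18 to -0.28), from 3 UMIs against 92, and in smooth muscle cells Ndufa4l2 (-2.04, -7.36 to 0.46), from 1 UMI against 119.

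Cox7b had 295, 130, 111 and 175 CPM in smooth muscle cells, and its ratio for genotype on the standard diet (-1.18, -1.29 to -1.06) was the lowest there. In fibroblasts Cox7b had 266, 204, 197 and 230, with the same order of libraries and a smaller range. Ndufa1, an X-linked subunit of complex I, had the highest ratio for diet in fibroblasts of mice labelled Nrf2Cdh5tKO (0.55, 0.48 to 0.62), from 196 to 286 CPM, and Ndufa11 in macrophages (1.03, 0.73 to 1.33), from 61.7 to 126.

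The highest ratios for diet in flox/flox were small or rested on few UMIs: Atp5s in fibroblasts (0.49, -0.01 to 0.96), Cox7a1 in smooth muscle cells (0.31, -2.01 to 1.91) and Ndufa10 in macrophages (0.47, 0.02 to 0.90). Cox6b2 was highest for genotype on the standard diet in smooth muscle cells (0.79, 0.36 to 1.2) and for genotype in atherosclerosis in fibroblasts (0.48, 0.12 to 0.86). Ndufs1, a core subunit of complex I, was lowest in the latter (-0.27) and highest for genotype on the standard diet in macrophages (0.42), where most members stood below 0.

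In macrophages, Sdhb of complex II had the highest ratio for genotype in atherosclerosis (0.95, 0.53 to 1.39) and Sdha the lowest (-0.36, -0.82 to 0.11), an interval that includes 0. In the smooth muscle cells of the same comparison Ndufs8, a core subunit of complex I, was highest (0.97, 0.44 to 1.54) and Cox4i2 lowest (-0.51, -1.32 to 0.36). These rest on 32 UMIs of Ndufs8 and 17 of Cox4i2 in the 67 smooth muscle cells of the atherosclerotic flox/flox library.

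The level of the chain differed with the depth of a cell. In normocholesterolemic flox/flox fibroblasts the members fell from 28190 CPM in cells under 3000 UMIs to 16830 in cells of 12000 or more. In the macrophages of that library they went the other way, from 8781 to 16752, and in its T cells from 9629 to 29550. Macrophages under 3000 UMIs made up 5.72%, 18.2%, 25.8% and 22.7% of the 4 libraries. Within bins of depth that held at least 20 cells in each library, the direction between libraries was that of the sum in every bin compared: 4 of 4 for all 4 fibroblast comparisons, and 3 of 3, 4 of 4, 4 of 4 and 3 of 3 for macrophages. Smooth muscle cells gave 1, 3, 3 and 1 bins, also in that direction. The sizes varied with depth. In macrophages the log2 ratios of the bins ran from -0.60 to -0.04, 0.29 to 0.51, -0.75 to -0.26 and 0.10 to 0.47 in the 4 comparisons. For diet in flox/flox, macrophages of 12000 UMIs or more hardly differed, at 16309 CPM (20 cells) in atherosclerosis against 16752. The part of depth in these ratios was not tested.

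**Figure D5:**
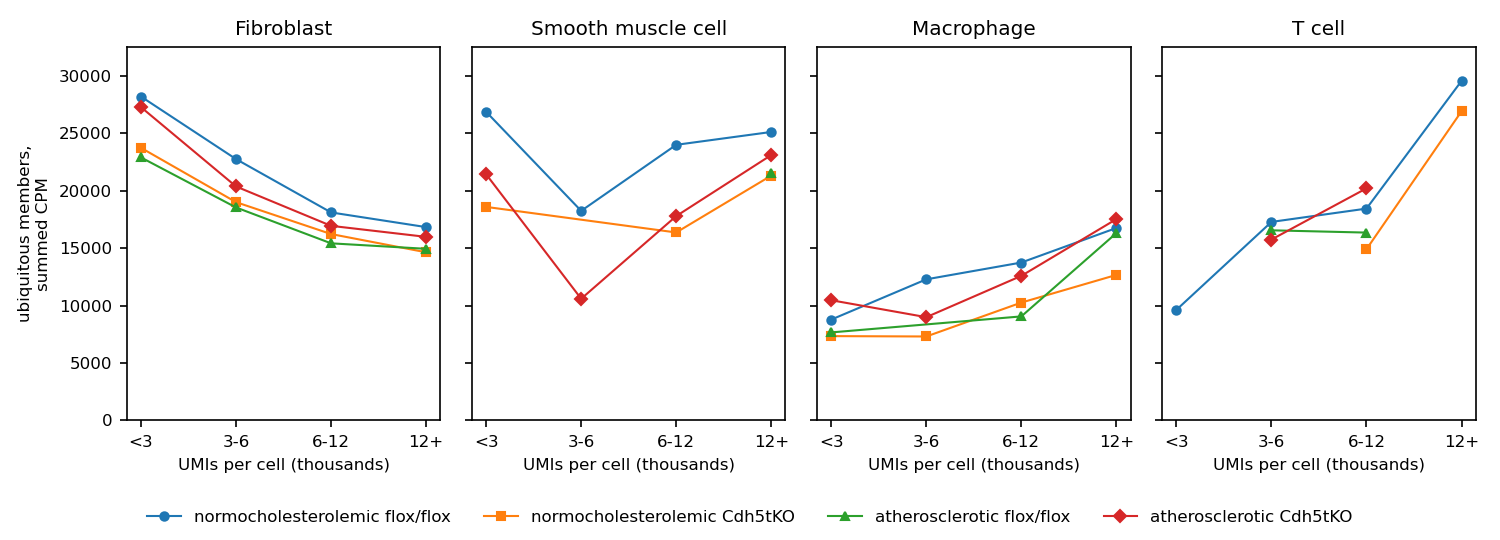
Summed CPM of the ubiquitous members in bins of UMIs per cell (under 3000, 3000 to 6000, 6000 to 12000 and 12000 or more) for 4 cell types, with 1 line per library and bins of at least 20 cells. The lines fall with depth in fibroblasts, from 28190 to 16830 in the normocholesterolemic flox/flox library, and end higher than they start in macrophages, from 8781 to 16752 in that library, though not every line rises at each step.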

How the data were processed

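Per the labels and the study's methods, the authors made the deposited UMI count matrices, 1 per library, with Cell Ranger 6.1.2 on mouse build mm10. The annotation release is not given in the sources used here. The values are raw counts, and no deposited cell types were used.

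Members and lists were chosen with earlier results of these data known, and the cell type gate was set after the marker distributions were seen. The study's limits on cells were used: 200 to 6000 genes detected, and no more than 15% of counts from mitochondrial genes. A marker was present when its UMIs per 10000 reached 10% of its 99.5th percentile. Cells needed 3 of 6 markers of a single type (thymocyte lists came before T cell lists, and T before NK), which also removes cells with markers of 2 types. The pericyte list was left out of the gate. No doublet caller was run.

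Counts summed per library and type were tested with edgeR 4.0.16 (R 4.3.3; low-count filter, TMM factors, quasi-likelihood, Benjamini-Hochberg over all genes, threshold 0.05), with type and library as terms. The libraries are the replicates. P-values rest on the spread left after the type and library terms, estimated over all types of a fit. On simulated counts for macrophages against fibroblasts (9705 genes tested), 98 of 100 genes changed by 1 on the log2 scale and 33 of 100 changed by 0.5 were recovered, with 9 false calls. The simulation gave all types the same mean profile apart from the changed genes, with a common dispersion and no library effect. Cell types differ far more widely in these data, so recovery and false calls here may differ. DESeq2 1.42.0, other filters, gates and left-out libraries were alternatives. Conditions have 1 library each and were compared as ratios with exact binomial 95% intervals. Likeness used log2 of CPM plus 1. Named genes were all isoforms with their partners, the 2 highest members per complex, the 3 largest called changes in each direction per cell type contrast, the extreme ratios per condition comparison and the 5 genes most like Ndufa4l2 and Cox4i2. Promoter windows are from RefSeq (GRCm38.p6) and exon overlaps from GENCODE. A gene that the rule for named genes selects, and the cargo of the vector, are not reported here.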

Additional observations from a re-analysis of the deposited data

Results flagged for a closer look

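The ratio of the summed ubiquitous members between atherosclerotic and normocholesterolemic libraries went opposite ways under the 2 genotype labels in each of the 3 cell types compared. In fibroblasts the log2 ratio was -0.21 in Nrf2 flox/flox and 0.17 in mice labelled Nrf2Cdh5tKO. In smooth muscle cells it was -0.33 and 0.0622, and in macrophages -0.32 and 0.44. Among flox/flox macrophages, the Lyve1+ cells went from 14584 to 8170 CPM and the others from 16280 to 16388, so the sum does not describe the latter. The difference between the labels was not tested, since each condition is a single library of pooled mice, and all 3 cell types come from the same 4 libraries. Beside these, the cytosolic ribosomal genes had ratios of -0.25 and 0.46 in macrophages, -0.27 and 0.09 in smooth muscle cells and -0.02 and 0.16 in fibroblasts. The mt- genes had 0.41 and -0.54, 0.06 and -0.31, and 0.07 and -0.10 in the same order. The part of these genes in the result was not tested.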

How the results depend on the processing

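For the members with the 3 largest called changes in each direction per cell type contrast, no fold change changed sign under the alternatives run. The adjusted p stayed below 0.05 in 334 of these checks and did not in 26. Other genes named above were not compared in this way. The members' median turned to -0.03 in thymocytes with 1 more marker in the gate, and in endothelial cells without normalization factors it turned from -0.10 to 0.10 and the balance of calls turned with it. Without normalization factors, members higher and lower came to 11 and 8 in endothelial cells, lower to 3 in T cells, higher to 39 in thymocytes and lower to 27 in Lyve1+ macrophages. In T cells 3903 of all 10981 genes were then lower, and the other all-gene counts are given above. DESeq2 called 15 lower in T cells. Without the low-count filter, 2 were lower in smooth muscle cells, 2 higher in macrophages, 0 higher and 29 lower in endothelial cells, 18 higher and 11 lower in T cells and 4 higher in thymocytes. Among all 22153 genes then tested, 4042, 4089, 1478 and 3070, 4035 and 5807, and 1158 were called in the same order. At most 10% mitochondrial UMIs gave 28 lower in endothelial cells, 11 lower in T cells and 8 higher in thymocytes. Of all 10930 genes then tested, 2547, 4389 and 1194 were called in the same order. A gate with 1 more marker gave 4 lower in T cells and 3 higher and 3 lower in thymocytes. Beside these, 4123 of all 10835 genes were lower in T cells, and 1043 were higher and 1315 lower in thymocytes. Without the library term, 0 were lower in smooth muscle cells, 19 lower in macrophages, 6 lower in endothelial cells, 24 higher and 4 lower in T cells, 5 higher in thymocytes and 2 lower in Lyve1+ macrophages. Of all 10981 genes, 2385 were then lower in smooth muscle cells, 3403 lower in macrophages and 1700 lower in endothelial cells. In T cells 3512 were higher and 4017 lower, and in thymocytes 1040 were higher. In Lyve1+ macrophages 416 of 7987 were lower. Cells with at least 3000 UMIs, an alternative chosen after seeing the data, gave 2 higher in macrophages and 27 lower in endothelial cells. Among all 10859 genes, 3172 were then higher in macrophages and 2545 lower in endothelial cells.

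Leaving out 1 library at a time gave 38 to 42 higher and 0 to 2 lower in smooth muscle cells, 2 to 3 and 20 to 39 in macrophages, 0 to 3 and 10 to 24 in endothelial cells, 23 to 32 and 5 to 9 in T cells, 3 to 7 and 0 to 0 in thymocytes, and 0 to 0 and 5 to 38 in Lyve1+ macrophages. Of the 10400 to 12535 genes tested in these fits, 1915 to 2261 were higher and 2212 to 3162 lower in smooth muscle cells. Macrophages had 3064 to 3399 and 3122 to 4473, and endothelial cells 1187 to 1323 and 1460 to 2514. T cells had 3072 to 3594 and 3695 to 4730, and thymocytes 771 to 1055 and 946 to 1519. In Lyve1+ macrophages it was 374 to 622 and 428 to 788 of 6915 to 8762. At the low end of the members' ranges, the share higher in thymocytes and lower in macrophages was under that of all genes. The share higher in T cells and lower in Lyve1+ macrophages was near it.

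Between conditions, named A (diet in flox/flox), B (diet under the Nrf2Cdh5tKO label), C (genotype on the standard diet) and D (genotype in atherosclerosis), means over cells gave log2 ratios of -0.24, 0.26, -0.28 and 0.22 in fibroblasts. They gave -0.48 for A, -0.33 for C and 0.22 for D in smooth muscle cells, and -0.54, -0.58 and 0.40 in macrophages. A gate with 1 more marker gave 0.14 for B and -0.23 for C in fibroblasts, 0.0464 for B in smooth muscle cells, and -0.50 for A and 0.40 for D in macrophages. Cells with at least 3000 UMIs gave 0.15, -0.23 and 0.12 for B, C and D in fibroblasts. At most 10% mitochondrial UMIs gave -0.29, -0.25 and 0.0938 for A, C and D in smooth muscle cells. Without a limit on mitochondrial UMIs, B cells had 2.10 mt- UMIs per nuclear UMI. The causes were not tested. No paired analysis was possible because each condition is 1 library. Endothelial cells, thymocytes of the atherosclerotic Nrf2Cdh5tKO library (21 cells) and the sparse isoforms are limited by depth.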

Other observations

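Dividing lymphocytes held more of the chain than the others of their type. T cells with markers of cell division such as Mki67 and Top2a had 32162, 28242, 31272 and 31498 CPM of the ubiquitous members (25, 17, 10 and 6 cells), and other T cells 19315, 14804, 16542 and 17482. Thymocytes with these markers had 30476, 28256, 28606 and 31533, and other thymocytes 22263, 19598, 17848 and 17565. The groups did not overlap in either type. The mt- genes gave 0.631 ± 0.184 UMIs per nuclear UMI in dividing and 1.51 ± 0.240 in other T cells (mean ± SD, n = 4 libraries). They gave 0.675 ± 0.114 in dividing and 1.41 ± 0.0457 in other thymocytes. Median depth was 17454 to 28278 UMIs in the dividing T cells and 5370 to 7064 in the others, and its part in the result was not tested.

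Among rarer leukocytes, monocytes had 18947 ± 1569 and dendritic cells 18712 ± 709 CPM of the ubiquitous members, and neutrophils 7784 ± 1260 (mean ± SD, n = 4 libraries), with as few as 4 cells in a library. The few erythroid cells of 3 libraries (5, 2 and 1) had 6261, 1623 and 2309. The 2 cells with fat cell markers in the normocholesterolemic Nrf2 flox/flox library had 52441.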
